A study of Mus musculus with 6 samples.

Results

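The 10 genes of tRNA methylation described here were followed in MS-5 cells, a mouse bone marrow stromal line that supports blood cell growth. The line was grown by itself or for 24 hr with SKM-1, a human acute myeloid leukaemia (AML) line, and both arms were sequenced as poly(A) RNA of the stromal cells. The members are Trmt61a, Trmt6, Trmt61b, Trmt1, Trmt5, Trmt10a, Trmt10c, Trmt11, Trmt112 and Trmt12. The list was selected on the fold change of Trmt61a between these same libraries, which was lower in co-culture, so the change of Trmt61a is given as a description without a test. Of the 10 genes, 9 had a transcript in the deposited tables, among 35968 genes in all, and these 9 passed the filter on low counts that left 13221 genes. Trmt61b had none and is not measured here.

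There were 3 libraries of MS-5 alone (MO1, MO2 and MO3) and 3 of co-culture (MC1, MC2 and MC3). The co-culture held 4 AML cells for each stromal cell, at 750000 AML cells per ml. The leukaemic cells were washed off with PBS and mild trypsin before RNA was taken, and reads were assigned to mouse transcripts. The labels give replicate numbers but do not name separate cultures, so p-values measure the spread between these libraries. Total estimated counts ran from 23978881 to 35694987 per library. In bulk RNA, fewer cells of a type and less RNA per cell cannot be told apart.

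The stromal character of the libraries was checked with 10 markers, none of them at 0, whose summed level was 12958 to 14774 CPM (counts relative to library size) alone and 14538 to 17316 CPM in co-culture. The 16 leukocyte markers summed to 24.9, 36.1 and 44.9 CPM in MO1 to MO3 and to 69.9, 279 and 67.2 CPM in MC1 to MC3. All 16 had counts in co-culture and 1 was at 0 in MS-5 alone. Of the 12 that passed the filter, 9 had co-culture libraries that all lay above MS-5 alone, where 11.6% of all genes did. MO2 and MC3 stood apart from the other 4 libraries. Transcripts annotated with a retained intron took 3.39% and 3.42% of their counts, against 1.49% to 1.64% in the others, and mitochondrial genome transcripts took 6.07% and 5.92%, against 10.6% to 13.2%.

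Transfer RNA is the most heavily modified RNA of the cell, and many of its modifications are methyl groups that methyltransferases move from S-adenosylmethionine onto set positions of the folded molecule. Methylation near the anticodon, such as m1G or wybutosine, bears on decoding and reading frame, whereas methylation of the body of the tRNA, such as m1A in the T-loop, bears on folding and stability. TRMT61A is the catalytic subunit of the nuclear m1A enzyme, and it works as a complex with the non-catalytic TRMT6. TRMT61B makes m1A in mitochondria. TRMT112 has no activity of its own and activates several methyltransferases, TRMT11 among them.

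Trmt61a lies on the plus strand of chromosome 12 (chr12:111678105-111683902, GRCm38). Its longest transcripts, Trmt61a-201 and Trmt61a-202, share the same coding sequence of 870 bases and the same ends. They differ by 1 intron of 302 bases in the 5′ untranslated region (chr12:111678301-111678602), which Trmt61a-202 splices out and Trmt61a-201 keeps. Only reads inside this intron or across its ends tell these transcripts apart.

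Trmt61a was at less than its level in MS-5 alone in every co-culture library. It had 15.17, 9.45 and 9.74 CPM in MO1, MO2 and MO3 and 5.19, 5.65 and 5.36 CPM in MC1, MC2 and MC3, after normalization by TMM. In CPM the co-culture libraries lay close together and the MS-5 libraries did not, since MO1 was well above MO2 and MO3. The means were 11.5 ± 3.22 CPM alone and 5.40 ± 0.234 CPM in co-culture (SD, n = 3 each), a log2 fold change of -1.09 (SE 0.24), or -52.9%. MC2, which had the highest leukocyte markers, had the highest Trmt61a level of the co-culture libraries in CPM, though not per unit of length. The part of the AML cells in the difference was not tested. The log2 ratio of MC3 to MO2, the libraries that stood apart, was -0.82, and that of MC1 and MC2 to MO1 and MO3 was -1.20.

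**Figure D1:**
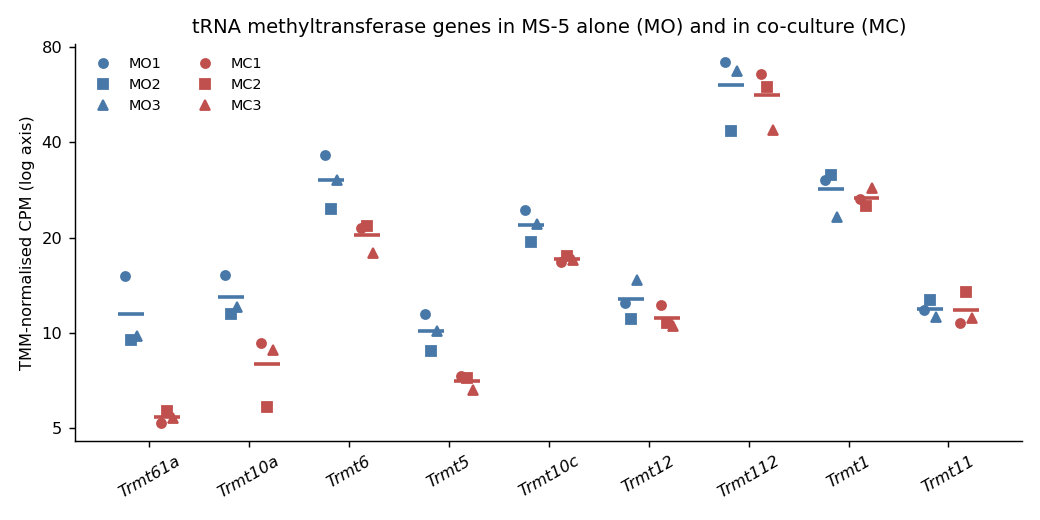
TMM-normalised CPM of the 9 measured genes on a log axis, ordered by fold change, with MS-5 alone in blue, co-culture in red, one point per library and a bar at each mean. For Trmt61a the co-culture points lie between 5.19 and 5.65 CPM, below all MS-5 points, whereas for Trmt11 and Trmt1 at the right the groups overlap.

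The intron-keeping transcript made up most of the difference in Trmt61a. Trmt61a-201 was at 6.87, 4.58 and 4.53 CPM in MO1 to MO3 and at 1.76, 1.40 and 1.18 CPM in MC1 to MC3. Its means were 5.33 ± 1.34 and 1.45 ± 0.293 CPM (SD, n = 3 each), a log2 ratio of -1.88. Trmt61a-202, the spliced form, was at 6.90, 4.20 and 4.41 CPM alone and at 2.89, 3.59 and 3.396 CPM in co-culture. This form differed less, with means of 5.17 ± 1.503 and 3.29 ± 0.357 CPM and a log2 ratio of -0.65, and its groups did not overlap either. The short transcripts Trmt61a-203 and Trmt61a-204 stayed at or under 1.02 CPM in every library.

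The split between the forms can also be read as a share within each library, which does not depend on the scaling between libraries. Trmt61a-201 held 45.3% (95% Wilson interval 40.3 to 50.3), 48.5% (42.9 to 54.2) and 46.5% (39.96 to 53.2) of the gene's counts in MO1 to MO3. It held 34.1% (27.4 to 41.5), 25.0% (18.5 to 32.9) and 22.3% (16.9 to 28.8) in MC1 to MC3. The co-culture shares were all below those of MS-5 alone, and the interval of MC1 overlapped those of MO1 and MO3. The intervals cover counting error only and treat the estimated counts as reads, although the quantifier had divided shared reads between these nearly identical transcripts, with an error that was not analysed here. A two-sided exact permutation test on 3 libraries a group cannot go below 0.1, and none was run because the gene was picked for this contrast. MO2, where retained-intron transcripts were raised across the genome, had the highest share of Trmt61a-201, and MC3, where they were raised too, had the lowest. Trmt61a-201 is annotated as protein coding, not as a retained-intron transcript. Whether the library type bears on its share was not tested.

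**Figure D2:**
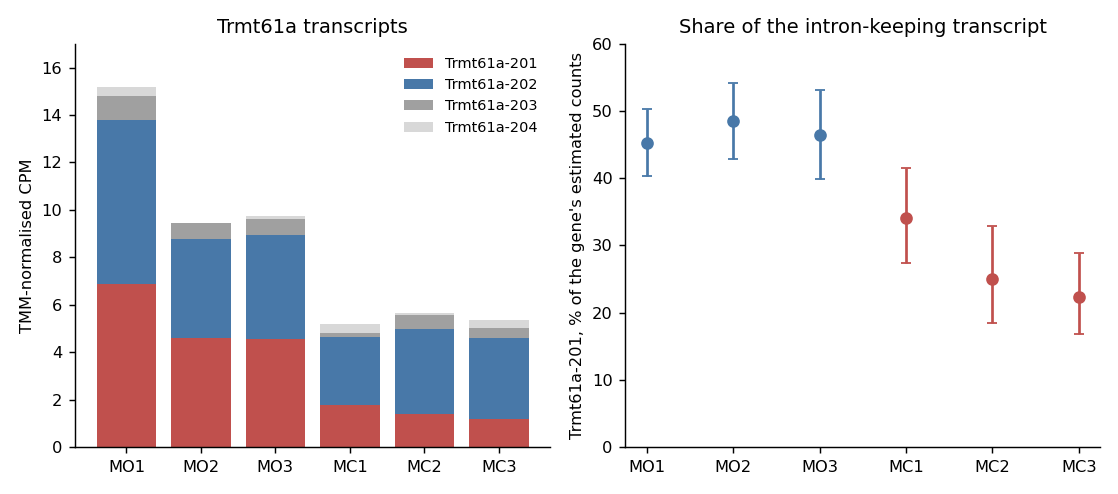
Left, TMM-normalised CPM of the 4 Trmt61a transcripts stacked for each library. Right, Trmt61a-201 as a percentage of the gene's estimated counts, with 95% Wilson intervals, at 45.3% to 48.5% in MS-5 alone (blue) and 22.3% to 34.1% in co-culture (red).

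Per unit of length the separation was less clear. In TPM, which corrects for transcript length, Trmt61a was at 11.1, 9.69 and 6.64 alone and at 4.198, 4.32 and 7.41 in co-culture, so that MC3 lay above MO3 and the groups overlapped. The short transcripts accounted for 3.62 of the 7.41 TPM in MC3, from few reads, because each read of a short transcript weighs more on this scale. Counting only Trmt61a-201 and Trmt61a-202, a choice made after the values were seen, the levels were 7.05, 6.94 and 4.45 TPM alone and 2.44, 2.52 and 3.79 TPM in co-culture, and the groups did not overlap. MO2 and MC3 had more TPM for the same CPM than the other libraries: Trmt12, a gene with 1 transcript, had 11.04 CPM and 4.27 TPM in MO2 but 12.45 CPM and 3.10 TPM in MO1.

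Trmt6, the partner subunit of the m1A enzyme, was also lower in each co-culture library. It lies on the minus strand at chr2:132804207-132816055 and had 36.40, 24.60 and 30.32 CPM alone and 21.39, 21.77 and 17.93 CPM in co-culture. The groups did not overlap in CPM, nor in TPM, where Trmt6 was the only member that kept them apart, with 11.9 to 16.2 TPM alone and 9.29 to 11.8 TPM in co-culture. The log2 fold change of Trmt6 was -0.58 (SE 0.18) and did not pass the threshold of 0.1 (edgeR quasi-likelihood test, adjusted p = 0.205). Within a library, the ratio of Trmt61a to Trmt6 in TPM was 0.711, 0.599 and 0.558 alone and 0.452, 0.462 and 0.629 in co-culture. These ratios overlapped because of MC3, and their numerator is the gene picked for being lower in co-culture.

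Trmt61b, the mitochondrial m1A enzyme, is annotated in GENCODE M21 as a gene of the antisense class with 3 transcripts (chr17:71557027-71598755, minus strand). It shares 32507 bases with Spdya on the other strand. None of the 4205 transcripts of that class was in the deposited tables.

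Trmt5 and Trmt12 act at the anticodon loop. TRMT5 makes m1G next to the anticodon, which helps to hold the reading frame, and TRMT12 carries out a later step of wybutosine synthesis on the same guanosine of phenylalanine tRNA. Trmt5 (chr12:73280011-73286710, minus strand) had 11.50, 8.78 and 10.15 CPM alone and 7.29, 7.19 and 6.61 CPM in co-culture. The groups did not overlap in CPM, and the log2 fold change was -0.53 (SE 0.18, edgeR adjusted p = 0.226). Trmt12 (chr15:58872674-58877127, plus strand) had 12.45, 11.04 and 14.73 CPM alone and 12.21, 10.72 and 10.48 CPM in co-culture. MC1 lay within the range of MS-5 alone, and the log2 fold change was -0.19 (SE 0.17, edgeR adjusted p = 0.729).

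Trmt10a and Trmt10c are paralogues that methylate purines early in the tRNA sequence. TRMT10A makes m1G in the nucleus and cytosol. TRMT10C works in mitochondria, where it is also a subunit of the RNase P that frees tRNAs from the long mitochondrial transcript. Trmt10a (chr3:138143448-138159821, plus strand) had 15.25, 11.49 and 12.06 CPM alone and 9.28, 5.82 and 8.85 CPM in co-culture. The groups did not overlap in CPM, and MC2 was lowest. The log2 fold change of Trmt10a, -0.69 (SE 0.24), was the lowest of the members after Trmt61a and did not pass (edgeR adjusted p = 0.235). Trmt10a shares 1521 bases with Mttp on the other strand.

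Trmt10c (chr16:56032609-56037819, minus strand) had 24.43, 19.32 and 22.12 CPM alone and 16.72, 17.49 and 17.03 CPM in co-culture. The co-culture libraries were close together in CPM, with an SD of 0.385 CPM, below all MS-5 libraries. In TPM they were at 6.37, 6.34 and 10.1, and the groups overlapped. The log2 fold change was -0.36 (SE 0.14, edgeR adjusted p = 0.318). The other subunits of mitochondrial RNase P were Hsd17b10, with a log2 fold change of -0.016 (SE 0.34, edgeR adjusted p = 0.994), and 1110008L16Rik, the nuclease subunit Prorp, with -0.046 (SE 0.26, adjusted p = 0.982). For Hsd17b10 the error was large, since it varied by 24.3 CPM (SD) around a mean of 71.8 CPM alone.

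Trmt1, whose product makes dimethylguanosine at the hinge between the D-arm and the anticodon arm, did not separate by culture. It lies at chr8:84686307-84699808 on the plus strand and had 30.50, 31.64 and 23.25 CPM alone and 26.55, 25.09 and 28.67 CPM in co-culture. The log2 fold change was -0.089 (SE 0.16, edgeR adjusted p = 0.914). Its transcripts separated MO2 and MC3 from the rest in place of the cultures. Retained-intron transcripts held 37.4% of its counts in both MO2 (95% Wilson interval 34.5 to 40.5) and MC3 (34.4 to 40.4), against 8.97% to 9.94% in the other 4 libraries. Most of this was Trmt1-211, with 231 and 257 counts in MO2 and MC3 and 4.30 to 17.1 counts elsewhere. Trmt1 has 30 annotated transcripts, 11 of them of this class, and shares 1556 bases with Nacc1 on the other strand.

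**Figure D3:**
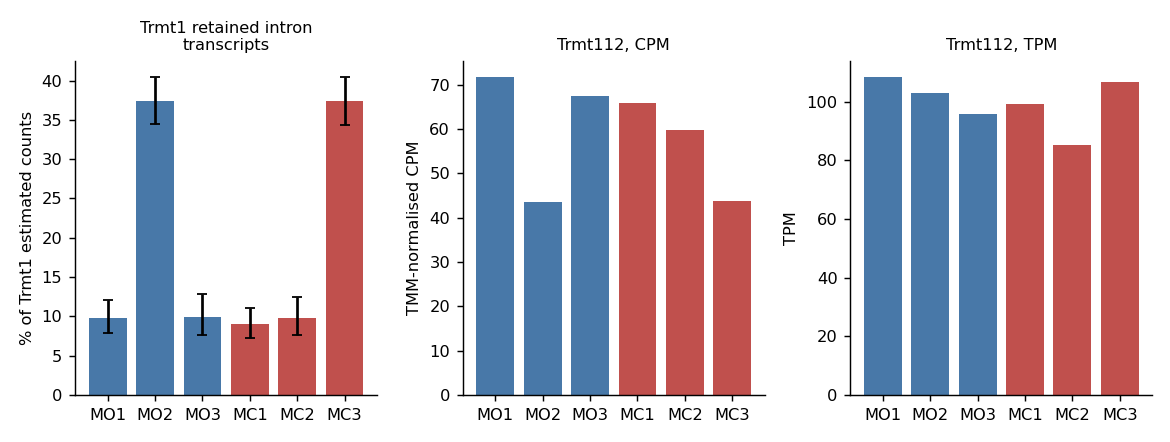
Left, the share of Trmt1 counts in retained-intron transcripts with 95% Wilson intervals, which is 37.4% in MO2 and MC3 and under 10% elsewhere. Middle and right, Trmt112 in TMM-normalised CPM and in TPM, with MS-5 alone in blue and co-culture in red; MO2 and MC3 are the lowest libraries in CPM but not in TPM.

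Trmt112, the shared activating subunit, was the most abundant member and varied with the library type. It lies at chr19:6909698-6911049 on the plus strand and had 71.81, 43.45 and 67.40 CPM alone and 66.01, 59.90 and 43.81 CPM in co-culture. MO2 and MC3 were lowest, nearly equal to each other, and the log2 fold change was -0.11 (SE 0.24, edgeR adjusted p = 0.942). In TPM the same libraries had 103 and 107, within the range of the others, which was 85.1 to 108. Trmt112 shares 409 bases with Prdx5 and 73 with Esrra on the other strand. The processed pseudogene Trmt112-ps2 took 8.21% to 13.6% of the counts of the pair and had a log2 fold change of -0.26 (SE 0.37, edgeR adjusted p = 0.868), so part of the signal of either gene may belong to the other. Trmt112-ps1 had at most 4 counts in a library.

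The methyltransferases that TRMT112 activates differed in their values. Trmt11, which makes a methylguanosine at the start of the D-arm, had 11.78, 12.73 and 11.24 CPM alone and 10.77, 13.42 and 11.15 CPM in co-culture. The groups overlapped in full, and the log2 fold change was -0.018 (SE 0.16, edgeR adjusted p = 0.991). Trmt11 lies at chr10:30534225-30600749 on the minus strand. Alkbh8, whose product methylates wobble uridines, had a log2 fold change of -0.45 (SE 0.15, adjusted p = 0.226), and Thumpd3, a methylguanosine enzyme, had -0.28 (SE 0.12, adjusted p = 0.364). In both, the co-culture libraries lay below all MS-5 libraries in CPM but not in TPM. Bud23, which methylates ribosomal RNA, had -0.47 (SE 0.24, adjusted p = 0.454), N6amt1, which methylates a release factor, had -0.21 (SE 0.35, adjusted p = 0.900), and Thumpd2 had -0.083 (SE 0.17, adjusted p = 0.932). Mettl5, another ribosomal RNA enzyme, was the only partner with a positive value, at 0.36 (SE 0.25, adjusted p = 0.629). None of these 7 passed edgeR's test without a covariate, and Bud23 (adjusted p = 0.0302), Alkbh8 (0.0369) and Thumpd3 (0.0506) passed with a covariate for MO2 and MC3, where 16.4% of all genes passed as lower.

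Over the members, 5 of the 9 measured had co-culture libraries that all lay below MS-5 alone in CPM: Trmt61a, Trmt10a, Trmt6, Trmt5 and Trmt10c. Of all genes tested, 9.60% lay below in CPM and 11.6% lay above. Leaving out Trmt61a, which was chosen for it, the count in CPM was 4 of 8. In TPM the count was 1 of 9, Trmt6, where 7.53% of all genes lay below and 7.68% above. All 8 of the other members had a negative log2 fold change, as did 52.5% of all genes, and their median was -0.28 against -0.019 over all genes. None of the 8 passed the adjusted threshold, which 4.38% of all genes did, 0.666% as lower and 3.71% as higher. Trmt61a is not counted here, since the list was chosen for it. Trmt6, Trmt5, Trmt10a and Trmt10c were under an unadjusted edgeR p of 0.05, as were 5.63% of all genes in that direction and 8.62% in the other.

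**Figure D4:**
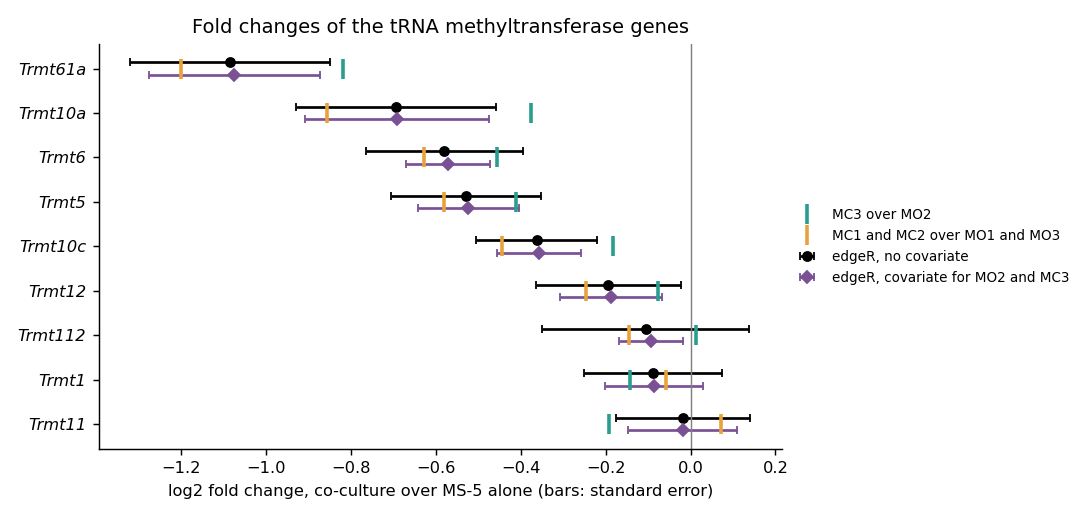
Log2 fold change of each member, co-culture over MS-5 alone, from edgeR without (black) and with (purple) a covariate that marks MO2 and MC3, with standard errors. Ticks give the log2 ratio of MC3 to MO2 (green) and of MC1 and MC2 to MO1 and MO3 (orange); the ratios are negative in both for all members but Trmt112 and Trmt11.

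Because MO2 and MC3 differ from the rest in the same way, one from each culture, the comparison was also made with a covariate for this pair. The fold changes of the members hardly moved and their errors shrank. Trmt6 then had -0.57 (SE 0.099, edgeR adjusted p = 0.0174), Trmt5 -0.52 (SE 0.12, adjusted p = 0.0311), Trmt10c -0.36 (SE 0.098, adjusted p = 0.0504) and Trmt10a -0.69 (SE 0.22, adjusted p = 0.0713). These 4 of the 8 passed, where 16.4% of all genes passed as lower. Trmt12, Trmt112, Trmt1 and Trmt11 did not, with adjusted p-values from 0.309 to 0.935. The covariate was taken from the way the libraries fall in a principal component plot of these data, so its p-values are not independent of them. With MO1, MO3, MC1 and MC2 alone, Trmt6 passed (-0.61, edgeR adjusted p = 0.0807) and the other 7 did not, where 4.71% of all genes passed as lower.

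In length-corrected levels the members spanned a wide range. In MS-5 alone Trmt112 was highest at 102 ± 6.29 TPM (mean ± SD, n = 3), followed by Trmt1 at 32.6 ± 13.4 and Trmt6 at 14.6 ± 2.32. Below these, Trmt10c (9.58 ± 1.62), Trmt61a (9.14 ± 2.28), Trmt5 (8.46 ± 1.64), Trmt11 (8.32 ± 3.09) and Trmt10a (6.82 ± 2.47 TPM) did not differ from their neighbours beyond their spread. Trmt12 was lowest at 3.65 ± 0.587 TPM, and its range lay apart from that of Trmt10a, as those of Trmt112, Trmt1 and Trmt6 did from their neighbours. In co-culture the first 3 places and the last 2, by mean, were the same. The 4 genes between them, from Trmt11 at 8.09 ± 2.29 TPM to Trmt61a at 5.31 ± 1.82 TPM, did not differ from their neighbours beyond their spread. The ranges of Trmt6 and Trmt11 overlapped in co-culture, as did those of Trmt10a and Trmt12.

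Across the 6 libraries, some members followed Trmt61a closely. On log2 CPM, Pearson's r with Trmt61a was 0.97 for Trmt5, 0.97 for Trmt10c, 0.94 for Trmt6 and 0.84 for Trmt10a, and it was 0.49 for Trmt12, 0.34 for Trmt1, 0.34 for Trmt112 and 0.11 for Trmt11. These values are descriptive, since the points are the same 6 libraries in 2 groups. Trmt61a was picked for the difference between these groups, which enters every r. The 5 genes with the most similar pattern of all tested were Ncoa5 (r = 0.996), Rad1 (0.994), 2410131K14Rik (0.993), Ska1 (0.993) and Ndufaf4 (0.992). Their fold changes were not alike in size. Ncoa5, a nuclear receptor coactivator, had a log2 fold change of -0.17, whereas Ndufaf4, an assembly factor of respiratory complex I, had -1.05, and its levels of 16.6, 10.4 and 11.2 CPM alone and 5.95, 5.94 and 6.61 CPM in co-culture were near those of Trmt61a.

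The remaining methyltransferases of tRNA and their partners, a list of 30 genes of which 29 were tested, had 0 that passed in either direction by edgeR at the adjusted threshold and 3 at an unadjusted p under 0.05, all lower, where 4.38% of all genes passed and 5.63% were lower at that unadjusted p. DESeq2's Wald test called 1, where it called 9.62% of all genes. Their log2 fold changes ran from -0.53 to 0.36 with a median of -0.21, and 24 of 29 were negative. In 5 genes (Trmt2a, Wdr4, Trdmt1, Alkbh8 and Thumpd3) the co-culture libraries lay below all of MS-5 alone in CPM, and in none above, where 9.60% and 11.6% of all genes did so. In TPM there were 0 genes of the list below and 0 above, where 7.53% and 7.68% of all genes did so. The lowest were Thada, the partner of a ribose methyltransferase, at -0.53 (SE 0.26, edgeR adjusted p = 0.428) and Wdr4, the partner subunit of the m7G enzyme, at -0.51 (SE 0.17, adjusted p = 0.241). The highest beside Mettl5 was Trmt13, another ribose methyltransferase, at 0.15 (SE 0.54, adjusted p = 0.969). Trmt9b was too low to be tested.

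Among 47 other tRNA modification enzymes, all tested, Qtrt2 was the 1 gene that passed, as lower, where 0.666% of all genes did. QTRT2 is the non-catalytic subunit of the enzyme that puts queuine, a base from diet and gut bacteria, into the wobble position. Qtrt2 had 27.74, 23.94 and 18.58 CPM alone and 11.78, 12.42 and 14.76 CPM in co-culture. The groups did not overlap in CPM, though they did in TPM, and the log2 fold change was -0.85 (SE 0.20, edgeR adjusted p = 0.0938). Qtrt2 did not pass with any single library left out, under DESeq2's size factors, library size or the effective length offset, by limma on TPM, or with the replicate block. Without any 1 of the MS-5 libraries no gene of the series passed, so those losses are not particular to it. Lower calls over all genes, 88 by edgeR without a covariate, were also few without MC1 (0) or MC2 (3) and with the replicate block (1). They were 17 by limma on log2(TPM + 0.5), 26 without MC3 and 44 with the length offset. Under DESeq2's size factors they were 79, and by library size 102. With the covariate for MO2 and MC3 Qtrt2 passed at -0.86 (SE 0.16, edgeR adjusted p = 0.0208). Its catalytic partner Qtrt1 had -0.34 (SE 0.18, adjusted p = 0.485), also without overlap in CPM but with overlap in TPM. The list's median was -0.26 and 38 of 47 were negative, but without MO1 the median was -0.15 and 31 were negative. In CPM, 13 genes lay below in co-culture without overlap and 1 above, where 9.60% and 11.6% of all genes did so. In TPM 5 other genes lay below and none above, where 7.53% and 7.68% of all genes did so. Pus7l, a pseudouridine synthase, had -0.72 (SE 0.25, adjusted p = 0.237).

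The gene above in CPM was Cdk5rap1, which adds a methylthio group in mitochondria, with 0.37 (SE 0.17, edgeR adjusted p = 0.393), and Trmu, a mitochondrial thiolation enzyme, had 0.34 (SE 0.42, adjusted p = 0.842). The demethylases that remove m1A did not pass. Alkbh1 had a log2 fold change of -0.43 (SE 0.50, adjusted p = 0.822), Alkbh3 had -0.052 (SE 0.14, adjusted p = 0.952) and Fto had -0.078 (SE 0.21, adjusted p = 0.951). Alkbh1 was among the genes that depended on the library type, since with the covariate its SE was 0.091 and its adjusted p 0.0257.

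Of 41 genes of tRNA processing and charging, 40 were tested and 0 passed in either direction by edgeR, where 4.38% of all genes did. At an unadjusted p under 0.05 there were 6, all lower, against 5.63% of all genes. DESeq2's Wald test called 2, both lower, where it called 358 of 13185 genes as lower and 910 as higher. Their median log2 fold change was -0.27 and 34 were negative, but the median ran from -0.43 to -0.082 with single libraries left out, at -0.43 without MO2, -0.082 without MO1 and -0.11 without MC3. In CPM, 8 lay below MS-5 alone without overlap and none above, where 9.60% and 11.6% of all genes did so. In TPM 10 lay below and none above, where 7.53% and 7.68% of all genes did so, and 2 lay below in both units, where 1.91% of all genes did. The lowest were subunits of the nuclear RNase P that cuts the leader off precursor tRNA. Rpp40 had -0.83 (SE 0.28, edgeR adjusted p = 0.229) and Rpp38 had -0.70 (SE 0.24, adjusted p = 0.239), and for these both CPM and TPM did not overlap between cultures. The highest was Qars, the glutaminyl-tRNA synthetase, at 0.19 (SE 0.22, edgeR adjusted p = 0.817). With the covariate, 7 genes of the first of these lists, 17 of the second and 19 of the third passed, all lower, where 16.4% of all genes did.

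**Figure D5:**
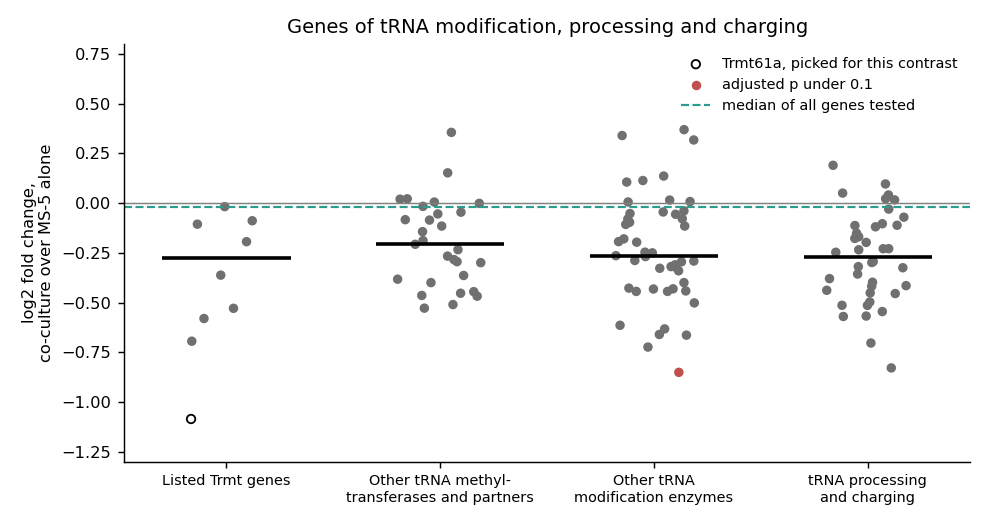
Log2 fold changes, co-culture over MS-5 alone, of the 9 measured members and of the tested genes of the 3 other lists, one point per gene, with a bar at each list's median (for the members, without Trmt61a) and a dashed line at the median of all genes. Most points lie below 0 and the bars are between -0.28 and -0.21; the open circle is Trmt61a, picked for this contrast, and the red point is Qtrt2, which passed the adjusted threshold.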

How the data were processed

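The authors quantified paired reads of a stranded poly(A) kit with Kallisto 0.43.0 on a GRCm38 cDNA index and deposited an estimated count, a TPM value and a length for each transcript, without normalization of counts between libraries. Of 118489 transcripts, 116728 matched GENCODE M21 by version and length, and 1761 were left out. Both values were added up over each gene's transcripts, and the estimated counts were then rounded. Genes were filtered with filterByExpr, normalized by TMM (factors 0.923 to 1.17) and compared in R 4.3.3 by the quasi-likelihood test of edgeR 4.0.16, adjusted over 13221 genes by Benjamini-Hochberg with a threshold of 0.1. Sleuth, which the study used, was not used here. Log2 CPM for correlations had a prior count of 2. The tests were tested on simulated data first. The members, gene lists and alternatives were chosen with earlier results of these data known. Genes named are all members, the partners of TRMT112 and TRMT10C, m1A demethylases, pseudogenes of members, the 5 genes most like Trmt61a, and, per list, genes that passed and the extremes among genes of at least 1 CPM, of which 1 is not reported here. Qtrt1 and Alkbh1 with the covariate, and genes listed for not overlapping, were named after their values were seen. Alternatives were other scalings, DESeq2 1.42.0, limma 3.58.1 on log2(TPM + 0.5), filters, a replicate block, a covariate, and left-out libraries.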

Additional observations from a re-analysis of the deposited data

How the results depend on the processing

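The count of genes past the threshold, 579, was 1268 by DESeq2's Wald test, 356 and 224 by limma on log2(TPM + 0.5) and log2(TPM + 1), 3999 with the covariate for MO2 and MC3, 1702 with those libraries left out, and 2 and 0 at thresholds of 0.05 and 0.01. With single libraries left out it ran from 0 to 549, and it was 0 without any one of MO1, MO2 or MO3, 283 without MC1 and 281 without MC2. Of the 579, 491 were higher and 88 lower. The split was 339 and 17 by limma on log2(TPM + 0.5), 446 and 44 with an effective length offset, and 1835 and 2164 with the covariate. The count over the 9 members, 1, was Trmt61a alone, which was picked for this contrast, so nothing is read from its part in these counts. The count was 0 by library size alone, with an effective length offset, by limma at all 3 pseudocounts, at 0.05 and 0.01, and in every fit without 1 library (0 to 0), against 5 with the covariate and 2 with 4 libraries, or 4 and 1 without Trmt61a. For the other methyltransferases the count of 0 became 1 by DESeq2's Wald test, 7 with the covariate and 1 with 4 libraries. For the modification enzymes the count of 1 became 0 under DESeq2's size factors, library size, the length offset, limma at all 3 pseudocounts, both stricter thresholds and each left-out library (0 to 0), and 2, 17 and 2 under the Wald test, the covariate and 4 libraries. For processing and charging the count of 0 became 2, 19 and 4 under the same 3 settings. The calls of every list under these settings were all lower. Of all genes, 358 of 13185 passed as lower by the Wald test, 16.4% with the covariate and 4.71% with 4 libraries. The cause of these moves was not tested. The deviations of MO1 and MC1 from their group means correlated at 0.53, MO2 and MC2 at -0.29 and MO3 and MC3 at -0.52. Those of MO2 and MC3 correlated at 0.73. Because the split of MO2 and MC3 from the rest enters all these values, they cannot tell whether the replicate numbers pair the libraries. With the replicate block 444 genes passed, 443 of them higher and 1 lower, with 0 members, 0 modification enzymes and 0 of the other lists.

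The log2 fold change of Trmt61a ran from -1.21 to -0.70 over its alternatives and was -0.96 in log2(TPM + 0.5) of Trmt61a-201 and Trmt61a-202 only, a setting chosen after seeing the data. Without MO1 it was -0.81. Trmt6 ran from -0.72 to -0.41, Trmt5 from -0.63 to -0.39, Trmt10a from -0.83 to -0.41 and Trmt10c from -0.45 to -0.25. Trmt12 ran from -0.29 to -0.080, at -0.080 without MO3 and -0.29 without MO2. Trmt1 ran from -0.28 to -0.011, at -0.011 without MO1 or MO2, -0.22 without MO3 and -0.28 with the length offset. Trmt11 reversed to 0.090 with 4 libraries, and with single libraries left out it ran from -0.13 to 0.033, positive without MO2, MC1 or MC3. Trmt112 ran from -0.30 to 0.052 in the same way, positive without MO1 or MC3. Of the processing and charging genes, 34 of 40 were negative, but 25 without MO1 and 28 without MC3. The 136 to 380 counts of Trmt61a per library limit the precision of its transcript split.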
